A study of Zea mays with 2 samples.

Results

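Among 13444 barcodes of maize leaf protoplasts in 2 single-cell libraries, 350 were bundle sheath (BS) barcodes that lay on one side or the other of the study's limit on detected genes. A barcode stands for the transcripts caught in 1 droplet. BS barcodes had at least 10 unique molecular identifiers (UMIs, each counting 1 transcript molecule) of ME1, RBCS1, RBCS2 and PCK1 together, and more of these than of the mesophyll (MS) genes PEP1, CAH1 and MDH6. The low-gene side held 270 of them, 216 from library 1 and 54 from library 2, in which no more than 1800 genes were detected. The kept side held 80, 55 from library 1 and 25 from library 2, with more than 1800 and less than 7000 genes, and with chloroplast features under 4% and mitochondrial ones under 0.75% of UMIs. A further 23 and 5 BS barcodes had over 1800 genes but failed another limit of the kept side, and were on neither side. The members were thus chosen by measured values (gene number, organelle share and 7 marker genes), and these values are given as a description, with no test.

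Both libraries were made from plants of the inbred line B73 and neither had a treated or mutant group. For each library, protoplasts were released from the distal 6 cm of leaf 2 of V2 seedlings, pooled from 6 plants, and run with 10x Genomics Chromium 3′ v3 chemistry. The plants of the second library were grown at a different time. The groups compared are therefore classes of barcodes inside each library: low-gene BS barcodes, kept BS barcodes, and the low-gene and kept MS barcodes picked by the same limits from MS markers (2217 and 1929 low-gene, 3968 and 3310 kept in libraries 1 and 2). UMIs were summed per library and class. The p-values rest on these 2 libraries alone and on a variance pooled over genes, so they do not measure the spread of each gene between libraries. The libraries shared 11 barcode sequences, of which 1 was a member in either library. Doublets were not called, and the upper gene limit was applied on the kept side alone.

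In a leaf with C4 photosynthesis, MS cells fix carbon first and pass it on as a C4 acid to the cells of the bundle sheath, which surround the veins. BS cells release carbon dioxide from that acid with malic enzyme and PEP carboxykinase and refix it with Rubisco in the Calvin-Benson cycle. They hold little photosystem II in maize, and sucrose leaves the leaf through them on its way to the phloem.

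Low-gene BS barcodes were shallow. They had a median of 934.5 UMIs (500 to 6189) in library 1 and 1708.5 UMIs (505 to 5561) in library 2, against 24277 (7705 to 61373) and 13747 (6104 to 32817) on the kept side. Their median number of detected genes was 535 and 788, against 4437 and 3123 on the kept side. The UMI ranges of the sides did not overlap in either library. When every barcode was thinned to 1000 UMIs, the median number of genes was 529 (97 barcodes, with 119 shallower ones left out) on the low-gene side and 585 (55 barcodes) on the kept side of library 1. In library 2 it was 557 (41 barcodes, 13 left out) on the low-gene side and 559 (25 barcodes) on the kept side.

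The share of organelle transcripts was higher on the low-gene side. Chloroplast features held a median of 7.43% of UMIs in low-gene BS barcodes of library 1 and 4.05% in library 2, against 2.17% and 1.82% in kept ones. Mitochondrial features held a median of 1.37% and 1.27%, against 0.201% and 0.313% in kept ones. On the low-gene side, 203 of 216 barcodes (94.0%) of library 1 and 41 of 54 (75.9%) of library 2 were at or over at least 1 organelle limit, so that 13 in each library failed on gene number alone. The low-gene barcodes nearest to the limit had 1706 genes (6189 UMIs, 11.5% chloroplast) in library 1 and 1622 genes (3027 UMIs, 0.727% chloroplast) in library 2. The nearest kept ones had 2246 genes (7705 UMIs, 2.22% chloroplast) and 2027 genes (6332 UMIs, 2.40% chloroplast).

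**Figure D1:**
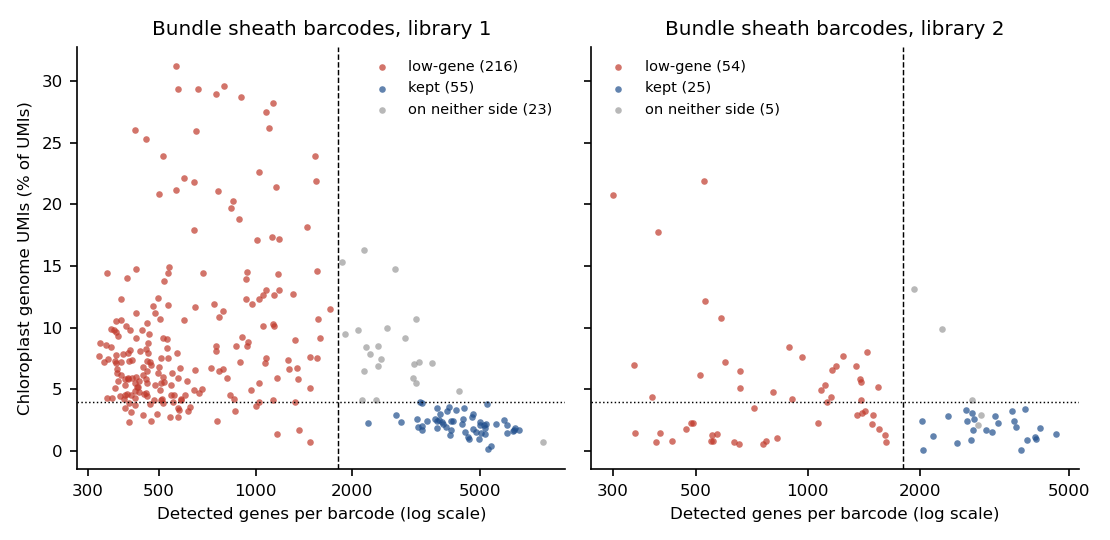
Chloroplast genome UMIs (% of all UMIs, vertical axis) against detected genes (log scale, horizontal axis) for each BS barcode of library 1 and library 2. The dashed line is the limit of 1800 genes and the dotted line the chloroplast limit of 4%, which 191 of 216 low-gene barcodes of library 1 and 27 of 54 of library 2 reached or exceeded.

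The 7 marker genes were not shifted evenly. PCK1, PEP carboxykinase, was the only BS marker with a higher level on the low-gene side in both libraries, at 8037 and 6963 counts per 1000000 UMIs (CPM, here of all UMIs) in low-gene barcodes and 3340 and 5032 in kept barcodes of libraries 1 and 2. RBCS1, a Rubisco small subunit, was lower, at 12764 and 18240 CPM in low-gene barcodes and 27148 and 31484 in kept ones. RBCS2, its close paralog, was lower as well (log2 ratio −1.21 and −0.81), as was the NADP malic enzyme gene ME1 (−0.83 and −0.33). PCK1 therefore held 22.4% to 26.8% of BS marker UMIs in the 3 gene-number classes of the low-gene side in library 1 (up to 500, over 500 and up to 1000, and over 1000 genes), and 6.10% on the kept side. In library 2 it held 11.2% in the first class, 10.05% in the next and 17.99% in the last, and 7.18% on the kept side.

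MS markers stood higher on the low-gene side. PEP1, the PEP carboxylase of MS cells, was at 1405 and 802 CPM of all UMIs in low-gene BS barcodes and 149 and 45.4 in kept ones. The log2 ratio was 2.25 and 3.97 for CAH1, a carbonic anhydrase, and 2.02 and 4.57 for MDH6, a malate dehydrogenase. The 3 genes gave 7.94% and 3.51% of all marker UMIs on the low-gene side, against 0.813% and 0.140% on the kept side. In library 1 their share was 14.5% in barcodes with up to 500 genes, 8.52% with over 500 and up to 1000, and 4.28% with over 1000. Their number was small in each barcode, with a median of 3 UMIs in low-gene barcodes of either library and of 2 and 1 in kept ones, beside BS marker medians of 29 and 70.5 and of 1181 and 922. A single kept barcode of library 1 carried 242 MS marker UMIs, 42.9% of its marker UMIs.

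The next comparison asked whether low-gene BS barcodes carried bundle sheath transcripts beyond the markers that chose them. They did, against low-gene MS barcodes: all 8 BS carbon genes and both nitrogen genes outside the marker set were higher, and all 4 MS genes outside it were lower (edgeR's quasi-likelihood test, Benjamini-Hochberg adjusted p under 0.05). The study listed the carbon genes, and the MS genes other than GLN4, as enriched in BS or MS cells of these same data. These genes are thus no independent choice, although the study's cells had passed its gene limit. Of 13024 genes tested, 1943 (14.9%) passed, 702 (5.39%) higher and 1241 (9.53%) lower. This split moved with the scaling: 892 of 1683 calls were higher with no scaling factors and 845 of 1440 with DESeq2. FBPA-1, a fructose-bisphosphate aldolase, had 11480 and 16672 CPM (over nuclear genes without the 7 markers, as in all that follows) in low-gene BS barcodes, against 199 and 28.8 CPM in low-gene MS barcodes, a log2 difference of 7.04 ± 0.55 (SE, adjusted p = 1.41e-34). FBPA-2 differed by 6.06 ± 0.50 and RCA2, Rubisco activase, by 5.52 ± 0.49. PRK2, the phosphoribulokinase that regenerates the CO2 acceptor, had 148 and 243 CPM in low-gene BS barcodes, against 0.876 and 0 CPM (3 and 0 UMIs) in low-gene MS barcodes. The smallest of these differences was that of MDH, a malate dehydrogenase, at 1.55 ± 0.40 (adjusted p = 0.00202). It missed the threshold with no library term and with the low-gene side held to the organelle limits. GLN4, a glutamine synthetase, was the MS gene nearest to the threshold, at −1.18 ± 0.44 (adjusted p = 0.0473). It missed the threshold under 6 of 11 alternatives, DESeq2, RLE factors and no factors among them.

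Set against kept BS barcodes, the summed share of the 8 BS carbon genes was close: 2.35% and 3.03% of nuclear UMIs on the low-gene side and 2.18% and 2.93% on the kept side. The members moved in different directions. Of all 3974 genes tested between the sides, 1214 (30.5%) passed, 640 (16.1%) higher and 574 (14.4%) lower in low-gene barcodes, with a median log2 fold change of −0.09 over all genes. Of the 8 carbon genes, 2 passed as higher and 1 as lower. TK1, a transketolase of the Calvin-Benson cycle, was higher, at 2312 and 1637 CPM in low-gene barcodes and 803 and 975 CPM in kept ones (log2 1.12 ± 0.36, adjusted p = 0.0116). SHBP1, sedoheptulose bisphosphatase of the same cycle, was lower, at 1384 and 1809 CPM in low-gene barcodes and 2827 and 3958 CPM in kept ones (−1.10 ± 0.38, adjusted p = 0.0173). The gene listed as RBCL, a nuclear annotated copy of the Rubisco large subunit that may share reads with the chloroplast gene, was higher at 2090 and 4870 CPM in low-gene barcodes and 624 and 2086 CPM in kept ones (1.46 ± 0.38, adjusted p = 0.00146). This value is uncertain, since it was −0.19 when the low-gene side was held to the organelle limits. Without a low-count filter, TK1 and RBCL missed the threshold.

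FBPA-1 was the most abundant of the 8, with 3103 and 1650 UMIs on the low-gene side and 16092 and 6197 on the kept side, and its log2 fold change of −0.08 ± 0.49 did not pass the test. RCA2 (0.31 ± 0.40), PRK2 (0.55 ± 0.38), FBPA-2 (−0.51 ± 0.35) and MDH (−0.66 ± 0.35) did not pass either. For PRK2, the 95% counting interval of the ratio was 0.976 to 2.04 in library 1 and 0.924 to 2.56 in library 2, which covers counting error only. Of the nitrogen genes, UmamiT20a, of a family of amino acid transporters, was lower, with 33 and 9 UMIs against 379 and 82 (122 and 90.9 CPM in low-gene and 281 and 228 CPM in kept barcodes, −1.25 ± 0.40, adjusted p = 0.0112). It missed the threshold with DESeq2 and with no factors. GLN3, a glutamine synthetase, had −0.69 ± 0.37 and did not pass.

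**Figure D2:**
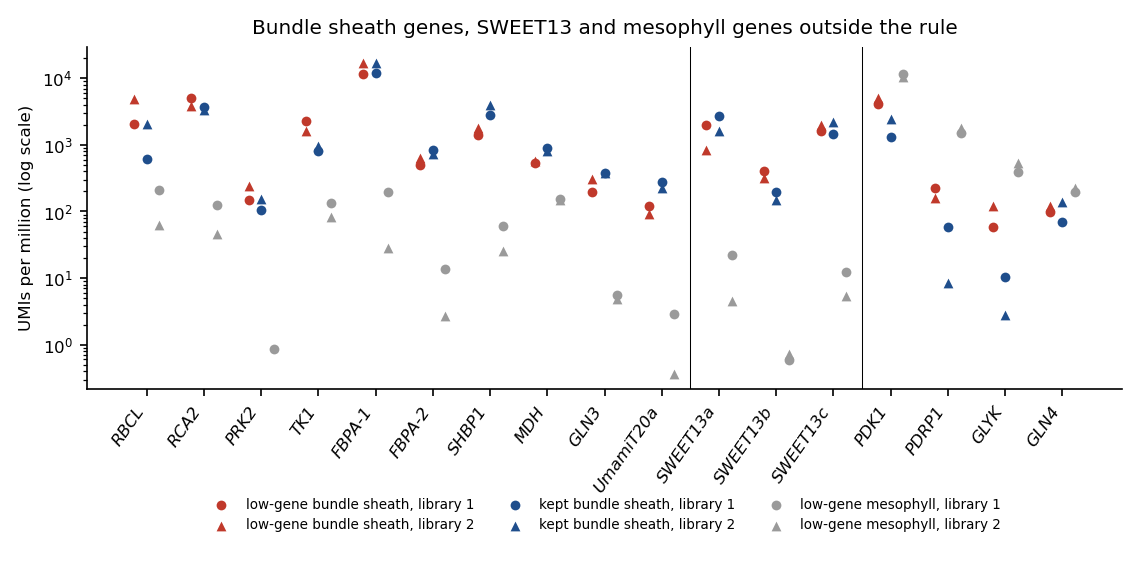
CPM (log scale, vertical axis) of BS genes, SWEET13 genes and MS genes outside the marker set in low-gene BS, kept BS and low-gene MS barcodes of libraries 1 (circles) and 2 (triangles); PRK2 in low-gene MS barcodes of library 2 had 0 UMIs and is not drawn. In both libraries every BS gene was higher in low-gene BS than in low-gene MS barcodes, and PDRP1 was higher in low-gene BS (222 and 162 CPM) than in kept BS barcodes (57.9 and 8.33 CPM).

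MS genes outside the marker set were higher in low-gene than in kept BS barcodes. The 4 genes together held 0.456% and 0.553% of nuclear UMIs on the low-gene side, against 0.146% and 0.256% on the kept side, beside 1.35% and 1.31% in low-gene MS barcodes. Of the 4, 3 passed as higher and 0 as lower, although PDRP1 and GLYK met the filter on low counts in both low-gene sums and not in both kept sums. PDK1, pyruvate orthophosphate dikinase, which regenerates the CO2 acceptor of MS cells, had 4180 and 5123 CPM in low-gene barcodes and 1320 and 2414 CPM in kept ones (1.35 ± 0.39, adjusted p = 0.00474), and missed the threshold without the filter. PDRP1, which regulates that enzyme, had 60 and 16 UMIs in low-gene barcodes and 78 and 3 in kept ones (2.54 ± 0.45, adjusted p = 1.05e-06). GLYK, glycerate kinase of photorespiration, had 16 and 12 UMIs in low-gene barcodes and 14 and 1 in kept ones (3.23 ± 0.65, adjusted p = 2.81e-05). GLN4 had 0.19 ± 0.42 and did not pass.

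The cytosolic ribosomal proteins, which build the ribosomes outside the organelles, were lower in low-gene barcodes. All 224 genes of the list together held 0.627% and 0.505% of nuclear UMIs on the low-gene side, against 2.02% and 0.938% on the kept side. Per barcode the median was 0.594% and 0.428% on the low-gene side and 1.38% and 0.846% on the kept side. Their share was low in each gene-number class of the low-gene side (0.680%, 0.690% and 0.556% in library 1, and 0.635%, 0.555% and 0.474% in library 2). Of the 224 genes, 82 passed the filter on low counts, 44 of them lower and 0 higher, but 48 of the 82 did so only through the kept side. Among the 16 that passed it in all 4 sums, 8 were lower and 0 higher, where 317 of all 2080 such genes were lower. With DESeq2, 4 of the 82 passed, and with no library term or with the low-gene side held to the organelle limits none did (0 of 82 and 0 of 65). The median was −0.96 over these 16 genes and −1.37 over the 82. Over all the list's genes tested in each case, it was between −1.93 and −1.22 under the alternatives run for it.

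The gene with the lowest adjusted p in that list was acidic ribosomal protein P2b (rpp2b, Zm00001d010128), with 82 and 30 UMIs in low-gene barcodes and 2119 and 339 in kept ones, which is 303 and 303 CPM against 1573 and 942 CPM (−2.06 ± 0.37, adjusted p = 2.98e-06). The 60S protein L37a-2 (Zm00001d053863) had 6 and 1 UMIs in low-gene barcodes and 244 and 23 in kept ones. Its ratio was 0.123 (95% counting interval 0.0445 to 0.271) in library 1 and 0.158 (0.00384 to 0.974) in library 2. The 40S protein S11 (Zm00001d026286) had 7 and 1 UMIs in low-gene barcodes and 214 and 27 in kept ones (−2.62 ± 0.57, adjusted p = 0.00013). Cytosolic ribosomal protein genes have many near-identical copies, so the value of any one is uncertain.

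**Figure D3:**
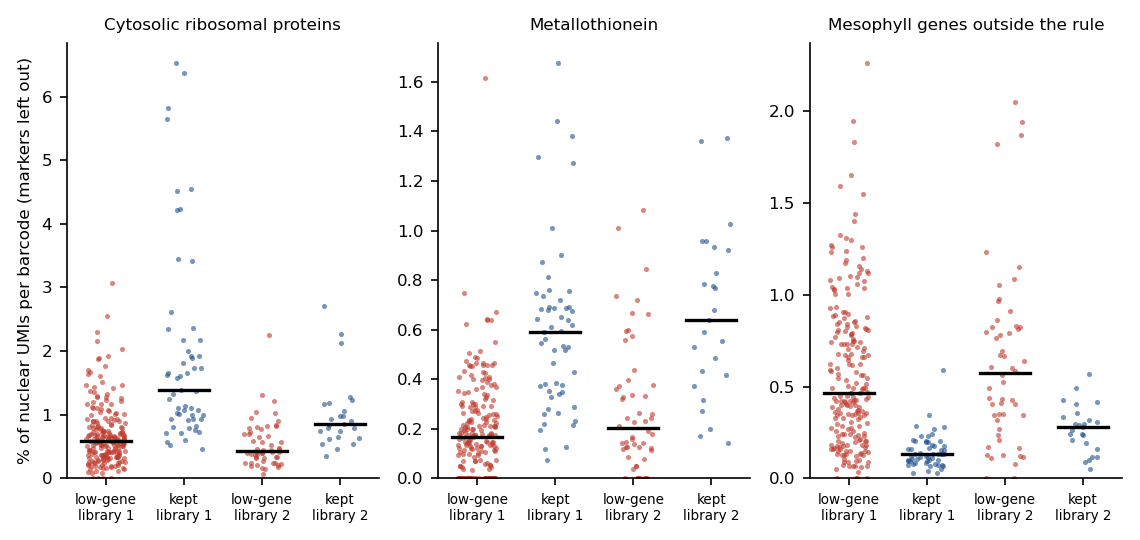
Share of nuclear UMIs without the 7 markers (%, vertical axis) taken by cytosolic ribosomal proteins, metallothioneins and MS genes outside the marker set in each low-gene and kept BS barcode of libraries 1 and 2, with the median as a line. Low-gene barcodes lay lower for ribosomal proteins (medians 0.594% and 0.428%, against 1.38% and 0.846%) and metallothioneins, and higher for MS genes, with ranges that overlapped in every panel.

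The 30 translation factors held 0.274% and 0.261% of nuclear UMIs in low-gene barcodes and 0.695% and 0.550% in kept ones, and 4 of the 19 tested were lower, with 0 higher, where 14.4% of all genes were lower. Of the 19, 6 reached the low-count filter in both kept sums and not in both low-gene sums. Among the 7 that passed it in all 4 sums 2 were lower, and the median log2 fold change was 0.26 over these 7, against −0.76 over all 19. The eIF5A gene Zm00001d022042 was the most marked of the abundant ones, at 895 and 1122 CPM in low-gene barcodes and 3456 and 3003 CPM in kept ones (−1.72 ± 0.38, adjusted p = 0.000172). The plastid ribosomal proteins, which serve the chloroplast, held 0.183% and 0.325% in low-gene barcodes and 0.262% and 0.323% in kept ones. None of the 25 tested passed in either direction (0 lower and 0 higher, edgeR), with a median of −0.36, or 0.23 under the organelle limits.

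Metallothioneins, small metal-binding proteins, were lower too. The 8 genes held 0.219% and 0.271% of nuclear UMIs in low-gene barcodes, against 0.599% and 0.629% in kept ones, and per barcode medians were 0.166% and 0.201% against 0.590% and 0.637%. Of the 5 that passed the filter in all 4 sums, 5 were lower, where 317 of all 2080 such genes were lower. Metallothionein 2C (Zm00001d035659) had 106 and 75 UMIs in low-gene barcodes and 1803 and 1121 in kept ones, where it reached 1338 and 3114 CPM (−1.93 ± 0.37, adjusted p = 1.37e-05). MT1b had 766 and 1182 CPM in low-gene barcodes and 2878 and 1542 CPM in kept ones (−1.19 ± 0.37, adjusted p = 0.0094), and it missed the threshold with no factors. The number of lower metallothioneins was 1 to 5 under the other scalings and filters, and 0 with no library term or under the organelle limits.

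Each photosystem list had calls in a single direction and in small number, beside 16.1% higher and 14.4% lower over all genes. The 17 photosystem I genes held 5.21% and 5.49% of nuclear UMIs in low-gene barcodes and 8.32% and 9.82% in kept ones, and 3 of 16 tested were lower, with 0 higher. Photosystem I H subunit1 (Zm00001d038984) was one of the most abundant transcripts of kept barcodes, and had 5668 and 6032 CPM in low-gene barcodes against 16351 and 12405 CPM in kept ones (−1.31 ± 0.47, adjusted p = 0.0218). All 3 calls were lost with RLE factors. The 25 photosystem II genes held 3.01% and 1.90% in low-gene barcodes and 2.35% and 2.15% in kept ones, so their summed share differed in direction between the libraries. Of 22 tested, 5 were higher and 0 lower. The oxygen-evolving enhancer protein 2-1 gene (Zm00001d018779) had 1080 and 485 CPM in low-gene BS barcodes and 273 and 72.2 CPM in kept ones (2.29 ± 0.37, adjusted p = 1.16e-07), beside 5771 and 5747 CPM in low-gene MS barcodes. Of 25 photosystem II genes tested between low-gene MS and low-gene BS barcodes, 18 were higher in MS and 1 was lower. Over all genes in that comparison, 9.53% were higher in MS and 5.39% lower.

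**Figure D4:**
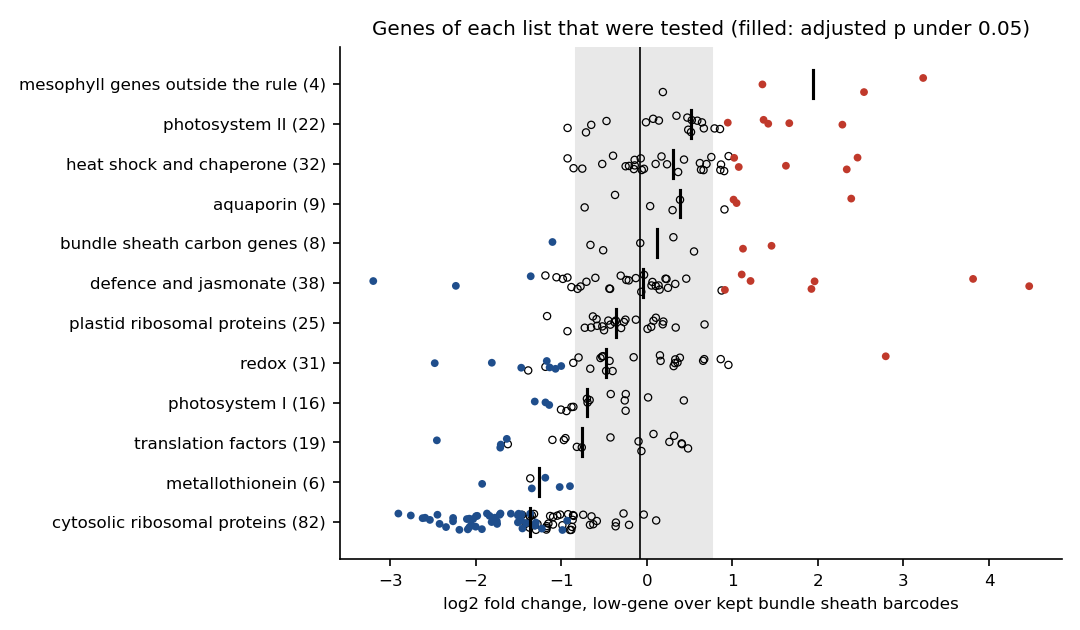
Log2 fold change of low-gene over kept BS barcodes (horizontal axis) for each tested gene of 12 lists (vertical axis, number tested in brackets), filled where the adjusted p was under 0.05, with the list's median as a short line. The long vertical line is the median of all genes tested (−0.09) and the grey band spans their lower to upper quartile. Cytosolic ribosomal proteins lie mostly left of the line (44 filled points lower, 0 higher). Of these 82 genes, 48 passed the low-count filter through the kept side alone. For those, a lower level in low-gene barcodes was largely a condition of being drawn. Among the 16 that passed it in every sum, 8 were lower and 0 higher, where 317 of all 2080 such genes were lower.

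The 10 named genes with the largest rise all reached the low-count filter in both low-gene sums and not in both kept sums, so a higher level there was largely a condition of their being tested, and they are given as single genes. Lipoxygenase10 (Zm00001d053675), of a family that oxidises fatty acids, had 78 and 9 UMIs in low-gene barcodes and 26 and 3 in kept ones, which is 289 and 90.9 CPM against 19.3 and 8.33 CPM (3.81 ± 0.50, adjusted p = 1.52e-11). Lipoxygenase6 (Zm00001d002000) had 29 and 5 UMIs in low-gene barcodes and 6 and 1 in kept ones, a ratio of 24.1 (9.83 to 71) in library 1 and 18.2 (2.04 to 860) in library 2. An AP2-EREBP transcription factor (Zm00001d027929) had 67 and 20 UMIs against 17 and 4 in kept barcodes (4.25 ± 0.49, adjusted p = 3.99e-15).

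Ferric reduction oxidase 7 (Zm00001d003559), in Arabidopsis an iron reductase of the chloroplast, had 181 and 162 CPM in low-gene barcodes and 17.1 and 11.1 CPM in kept ones (3.54 ± 0.49, adjusted p = 1.75e-10). A yellow stripe1 iron-phytosiderophore transporter (Zm00001d017429) had 77.7 and 232 CPM in low-gene barcodes and 5.2 and 22.2 CPM in kept ones (3.58 ± 0.56), and the heavy metal pump HMA2 (Zm00001d014669) 118 and 232 CPM against 13.4 and 38.9 CPM (2.85 ± 0.46). Both are membrane transporters of metals. Leaf ferredoxin-NADP reductase (Zm00001d011833), which makes NADPH at the end of the electron chain, had 551 and 293 CPM in low-gene barcodes and 69.8 and 27.8 CPM in kept ones (3.12 ± 0.41, adjusted p = 9.48e-12). Its partner ferredoxin (Zm00001d042049) had 633 and 273 CPM in low-gene barcodes and 113 and 16.7 CPM in kept ones (2.96 ± 0.41). The list of 10 was completed by AAP45, an amino acid permease (2.90 ± 0.45), and a chloroplast calcium sensing receptor (Zm00001d051746, 2.86 ± 0.51).

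Of these 10 genes, 6 were also higher in low-gene MS than in low-gene BS barcodes of both libraries: both lipoxygenases, ferric reduction oxidase 7, ferredoxin-NADP reductase, ferredoxin and the calcium sensing receptor. Ferredoxin-NADP reductase had 2311 and 3532 CPM in low-gene MS barcodes, and lipoxygenase10 had 2535 and 1075 CPM. The AP2-EREBP gene, AAP45 and HMA2 were lower in low-gene MS than in low-gene BS barcodes of both libraries, AAP45 at 4.09 and 0 CPM and HMA2 at 3.79 and 3.09 CPM. MS marker UMIs moved with the side as given above, as did depth and organelle share, and their part in these results was not tested. Counts of low-gene barcodes were small, and 199 of the 640 genes called higher had under 30 UMIs there.

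The 10 named genes with the largest fall all reached the low-count filter in both kept sums and not in both low-gene sums, so a lower level in low-gene barcodes was largely a condition of their being tested. Of the 10, 5 were cytosolic ribosomal proteins or their fusion with ubiquitin (L37a-2, L24, L40, S11 and L14-1). The others included a small nuclear ribonucleoprotein G (Zm00001d029483), a part of the splicing machinery, with 1 and 1 UMIs in low-gene barcodes and 142 and 18 in kept ones. Its ratio was 0.0351 (0.000883 to 0.199) in library 1 and 0.202 (0.00485 to 1.28) in library 2, so that the second library alone did not separate the sides. A nucleoside diphosphate kinase (Zm00001d029968), which balances nucleotide pools, had 5 and 0 UMIs in low-gene barcodes and 215 and 17 in kept ones. A count of 0 allowed up to 30.3 CPM in library 2, against 47.2 CPM in kept barcodes. The copper chaperone CCH (Zm00001d016691) had 5 and 1 UMIs in low-gene barcodes and 190 and 21 in kept ones (−2.80 ± 0.63, adjusted p = 0.000193), which missed the threshold with DESeq2. The vesicle protein YKT61 (Zm00001d042729) had 1 and 0 UMIs against 50 and 12, and a ubiquitin domain protein (Zm00001d038753) had 1 and 2 against 73 and 20.

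Calls among genes of defence went both ways, and those among redox genes were mostly lower. Over all genes tested, 16.1% were higher and 14.4% lower. Of 73 defence and jasmonate genes, 38 were tested, with 7 higher and 3 lower, of which 3 and 2 had passed the low-count filter in all 4 sums. A pair of Bowman-Birk protease inhibitors was among the lower ones: a wound-induced type (Zm00001d040027) with 9 and 1 UMIs in low-gene barcodes and 346 and 71 in kept ones (−3.20 ± 0.51, adjusted p = 4.17e-08), and bowman-birk inhibitor1 (Zm00001d042867) with 77 and 13 against 2174 and 165 (−2.23 ± 0.39). A single kept barcode gave 98.6% of the UMIs of the wound-induced gene in library 2. Of 46 redox genes, 31 were tested, with 1 higher and 7 lower. Among the 23 that passed the filter in all 4 sums, 0 were higher and 6 lower, where 317 of all 2080 such genes were lower. Glutathione transferase27 (Zm00001d011154) was the higher one, with 43 and 9 UMIs in low-gene barcodes and 47 and 0 in kept ones, where 0 allowed up to 8.33 CPM (2.79 ± 0.52), and glutathione transferase23 (Zm00001d020780) was among the lower, with 15 and 1 against 390 and 35 (−2.48 ± 0.49).

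Heat shock proteins and chaperones, which refold damaged proteins, held 0.591% and 0.727% of nuclear UMIs in low-gene barcodes and 0.456% and 0.636% in kept ones. Of 32 tested, 5 were higher and 0 lower, near the 16.1% of all genes that were higher. Among those that passed the low-count filter in all 4 sums 3 were higher, and without the filter 2 were higher and 2 lower of 45. Under the organelle limits the median over the list was −0.09, against 0.30 without them. The chaperone ClpB1 (Zm00001d038806) had 200 and 424 CPM in low-gene barcodes and 14.8 and 158 CPM in kept ones (2.46 ± 0.40, adjusted p = 1.27e-07). Aquaporins, the water channels of membranes, had 3 of 9 tested genes higher and 0 lower (PIP1-5, 2.39 ± 0.71, and PIP2-1, 1.01 ± 0.36, among them), but 2 of the 7 that passed the filter in all 4 sums, and 0 with DESeq2. Their median was 0.39, but −0.52 under the organelle limits. Histones had 0 higher and 3 lower of 6 tested, and 2 lower of the 5 that passed the filter in all 4 sums. Genes of water stress and abscisic acid had 0 higher and 3 lower of 14, and 2 lower of the 9 that passed in all 4 sums. In photorespiration, glycine decarboxylase1 (Zm00001d023437) was higher, at 917 and 1152 CPM in low-gene barcodes and 232 and 422 CPM in kept ones (1.70 ± 0.35), while its partner protein H1 (Zm00001d023699) was lower, at 1598 and 1748 CPM against 2525 and 3958 CPM in kept ones (−0.94 ± 0.38, adjusted p = 0.0449). The call of protein H1 was lost under 8 of 12 alternatives. Antenna proteins had 1 higher and 1 lower of 12 tested, proteases and senescence genes 2 and 2 of 17, lipid transfer and cuticle genes 1 and 0 of 7, and the cytoskeleton 0 and 0 of 3. All these counts stand beside 16.1% higher and 14.4% lower over all genes tested, and most lists were too short to depart clearly from it.

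The study also chose, on these same libraries, genes that mark abaxial and adaxial BS cells, so their counts here are no independent evidence. The 36 abaxial genes other than the 3 SWEET13 genes held 0.801% and 0.659% of nuclear UMIs in low-gene barcodes and 0.935% and 0.734% in kept ones, with 6 higher and 6 lower of 32 tested, near the shares over all genes (16.1% higher, 14.4% lower). AHA3, a plasma membrane proton pump, was among the higher (1.13 ± 0.37, adjusted p = 0.0116). It missed the threshold under 6 of 12 alternatives, DESeq2, no factors, no low-count filter and the organelle limits among them. The 5 adaxial genes held 0.182% and 0.275% in low-gene barcodes and 0.405% and 0.331% in kept ones, with 0 higher and 2 lower. The lower ones were MT1b and the protease inhibitor cystatin3 (CC3, −1.10 ± 0.39, adjusted p = 0.0226). The call of CC3 was lost under 5 of 12 alternatives, DESeq2 and no factors among them.

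The study lists BS genes whose transcripts were more or less abundant in protoplasts than in intact leaf tissue. It took these BS genes from markers found in its own single-cell data. The 47 protoplast-enriched ones held 6.02% and 4.16% of nuclear UMIs in low-gene barcodes and 3.22% and 3.74% in kept ones. Of the 47, 5 were higher and 14 lower, where 16.1% of all genes were higher and 14.4% lower. A single unnamed gene, Zm00001d000838, made up much of that sum. It held 3.33% and 1.32% of all UMIs of low-gene barcodes (2.14 ± 0.53, adjusted p = 0.000829). The 62 protoplast-depleted ones held 8.70% and 10.8% in low-gene barcodes and 11.2% and 13.6% in kept ones. Of these, 10 were higher and 13 lower of 58 tested, beside the same shares over all genes. The most abundant transcript of low-gene barcodes, named here after its values were seen, was also unnamed: Zm00001d000270 held 9.19% and 3.34% of their UMIs, against 1.85% and 1.48% in kept barcodes (1.81 ± 0.64, adjusted p = 0.0219).

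The balance of higher and lower calls depended on the low-count filter. Genes were tested with at least 31.7 CPM in 2 of the 4 sums, which was 8.58 and 3.14 UMIs in the low-gene sums and 42.8 and 11.4 in the kept sums. Of the 640 genes called higher, 363 passed the filter only in both low-gene sums, and of the 574 called lower, 254 passed it only in both kept sums. Among the 2080 genes that passed it in all 4, 274 were higher and 317 lower. Without the filter 261 of 1093 calls were higher, with a median of −0.43 over all genes, and in the fit with MS barcodes 430 of 1344 were. Direction was the same in both libraries for 637 of the 640 higher and 570 of the 574 lower genes. They were called in a fit to both libraries at once, so this was largely a condition of being called and is no separate replication. The number of detected genes, which split the barcodes, is itself built from the tested genes and rises with depth, so the test is not wholly independent of the rule.

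The number of calls depended on the fit and on the barcodes used. With no library term 41 genes passed, and with DESeq2 325 passed. With the low-gene side held to both organelle limits 24 of 2768 genes passed. This setting also left 13 barcodes in each library, so a lower organelle share and fewer counts cannot be told apart in it. Of the 1214 genes, 848 were still tested under the organelle limits and 788 of these kept their sign. Among the 63 named genes that passed, 56 were lost with no library term and 45 under the organelle limits. The 6 that passed under each alternative in which they were tested were both lipoxygenases, ferric reduction oxidase 7, ferredoxin-NADP reductase, the AP2-EREBP gene and the wound-induced protease inhibitor. In each of the 6, both sums were over the low-count filter on 1 side only.

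Whether a difference between the sides was larger in BS than in MS barcodes was tested as the difference of the 2 log2 ratios. Of 13024 genes, 76 (0.584%) passed, 17 (0.131%) with a higher and 59 (0.453%) with a lower ratio in BS than in MS barcodes. With DESeq2 21 of 64 and with no factors 32 of 82 were higher. With no library term 0 passed (508 at an unadjusted p under 0.05), and likewise 0 of the 1445 genes with 10 or more UMIs in every sum (183 unadjusted). Each of the 17 genes had a lower level in kept BS than in kept MS barcodes, and each of the 59 had a higher one. All 17 were above 0 in both BS libraries. Of the 59, 48 were below 0 in both BS libraries and 38 above 0 in both MS libraries.

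Ferredoxin-NADP reductase was among the 17, with a log2 difference of 2.93 ± 0.62 (adjusted p = 0.00131). Its level in MS barcodes was 2311 and 3532 CPM on the low-gene side and 2553 and 3500 CPM on the kept side. GLYK (3.43 ± 0.73), PDRP1 (2.51 ± 0.64), ferredoxin (2.86 ± 0.63) and carbonic anhydrase3 (Zm00001d044096, 2.97 ± 0.64) were of the same kind. Among the 59, FBPA-1 had 199 and 28.8 CPM in low-gene MS and 7.72 and 8.12 CPM in kept MS barcodes, with a log2 ratio of 4.46 and 1.78 in MS barcodes beside −0.32 and −0.63 in BS barcodes, both on the scaling of the 8 sums (difference −3.65 ± 0.64, adjusted p = 1.05e-05). Of the 58 tested protoplast-depleted BS genes, 36 were among the 59. The study took these genes from BS markers of its own single-cell data. A higher level in kept BS than in kept MS barcodes was thus largely a condition of being listed. The count is therefore no independent evidence, and it does not bear on protoplast release. The cytosolic ribosomal proteins gave 0 such calls of 223 tested, beside 0.453% of all genes, a share too small for this 0 to show equal ratios. Their median difference, BS minus MS, was −1.18, against −0.22 over all genes tested. In MS barcodes the summed share of these proteins was 0.781% and 1.05% on the low-gene side and 1.55% and 1.32% on the kept side. Of the genes called between the sides in BS barcodes, 565 and 581 of the 640 higher ones and 545 and 496 of the 574 lower ones had the same direction in MS barcodes of libraries 1 and 2. The share over all genes tested was not computed, so these counts show no agreement beyond it. The median log2 ratio of all genes tested in BS was −0.33 and −0.07 in MS barcodes.

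**Figure D5:**
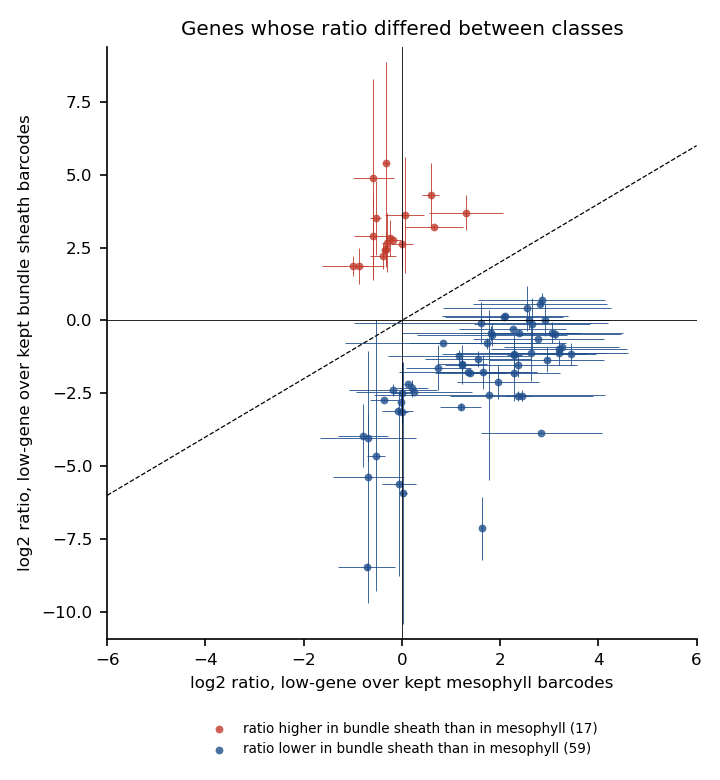
Log2 ratio of low-gene over kept barcodes in BS (vertical axis) against MS barcodes (horizontal axis) for the 76 genes whose ratio differed between the classes, each point the mean of libraries 1 and 2 and each bar reaching the values of both libraries. The dashed line marks equal ratios; the 17 genes above it lie above 0 on the vertical axis, and 48 of the 59 below it were below 0 in both BS libraries.

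Barcodes with at least 3 UMIs of the SWEET13 sucrose transporters made up 28.7% (62 of 216, 95% Clopper-Pearson interval 22.8 to 35.2) and 27.8% (15 of 54, 16.5 to 41.6) of low-gene BS barcodes, against 41.8% (23 of 55, 28.7 to 55.9) and 48% (12 of 25, 27.8 to 68.7) of the deeper kept ones. These intervals cover the sampling of barcodes within 1 library and are no test between the sides. The order of the sides was not stable at equal depth. Thinned to 500 UMIs, which left out no barcode, and counted from 1 UMI, the shares were 33.3% and 35.2% on the low-gene side and 36.4% and 32% on the kept side, beside 2.07% and 0.829% of low-gene MS barcodes. Thinned to 1000 UMIs, which left out 119 and 13 low-gene BS barcodes, they were 33% and 26.8% on the low-gene side and 40% and 36% on the kept side. At gene level SWEET13b was higher (108 and 31 UMIs against 262 and 54, 1.03 ± 0.37, adjusted p = 0.0223). It missed the threshold under 6 of 12 alternatives, DESeq2, no factors, no low-count filter and the organelle limits among them. SWEET13a (−0.68 ± 0.37) and SWEET13c (−0.01 ± 0.36) did not pass. These 3 genes are close paralogs, so their separate values are uncertain. SUT1, the transporter of companion cells, had 4 and 0 UMIs in low-gene and 14 and 0 in kept barcodes.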

How the data were processed

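Leaf protoplasts were profiled in 2 libraries, which the labels describe alike and which were treated as 2 replicates of 1 group. The authors deposited raw UMI counts per gene and barcode, with no normalization, made with Cell Ranger (3.1.0 in the matrix header), which aligned reads with STAR to B73 RefGen_v4 and called barcodes. No gene coordinates or sequences are given, since 0 of the 44146 maize gene IDs were found in the reference table at hand. Names came from the study and its supplementary tables, which describe 2942 genes.

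The members and gene lists were chosen with earlier results of these data known. UMIs were summed per library and class (4 sums for BS barcodes, 8 with MS barcodes). Nuclear genes without the 7 markers were tested with edgeR 4.0.16 in R 4.3.3 (quasi-likelihood test, TMM scaling, filterByExpr, library as a term, Benjamini-Hochberg adjustment, threshold 0.05). The library was the block because both sides came from the same pool of plants. This left 1 residual degree of freedom with 4 sums and 2 with 8. edgeR's prior weight was without limit, so all genes shared 1 variance, and the SE (the absolute log2 fold change over the square root of F) does not measure the spread of a gene between libraries. Ratios within a library are TMM-scaled log2 CPM differences with a prior count of 2, or, where a group held 1 to 3 UMIs, ratios with exact conditional intervals for counting error alone. For a gene with 0 UMIs the limit given is that of 3 UMIs.

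Named genes were, per direction, the 10 largest fold changes among described genes that passed with the same direction in both libraries, with 30 or more UMIs on the higher side and no barcode giving 50% or more of them. The 5 largest differences between classes per direction by the same conditions, the genes with a symbol in the lists, and the 2 members of each list with the lowest adjusted p were added. Alternatives were DESeq2 1.42.0, RLE factors, no factors, no low-count filter, 10 or more UMIs in every sum, no library term, organelle and marker UMIs included, the organelle limits on the low-gene side, barcodes with over 1500 and up to 2100 genes left out, 20 or more marker UMIs, at most 10% of marker UMIs from the other class, the BS contrast from 8 sums, equal weight per barcode, and leaving out each library. The code was tested on simulated data. Depth was 326619 and 111017 UMIs for the low-gene sums and 1461232 and 396300 for the kept sums.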

Additional observations from a re-analysis of the deposited data

Results flagged for a closer look

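For 26 named genes the ratio of low-gene over kept barcodes differed between BS and MS barcodes in the test of that difference (edgeR's quasi-likelihood test, adjusted p under 0.05). Values are log2 differences, BS minus MS.

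The difference was above 0 for 8 genes, all of them lower in kept BS than in kept MS barcodes. It was 2.53 for ferric reduction oxidase 7, 2.51 for PDRP1, 2.80 for glutathione transferase27, 2.93 for ferredoxin-NADP reductase, 3.43 for GLYK, 2.86 for ferredoxin, 2.97 for carbonic anhydrase3 and 2.83 for the calcium sensing receptor.

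It was below 0 for the others, all of them higher in kept BS than in kept MS barcodes. Among transporters it was −3.63 for AAP56, −3.89 for UmamiT21a, −4.57 for SWEET13a, −3.67 for SWEET13c, −5.18 for the NIP2 channel (Zm00001d037228) and −4.76 for metal tolerance protein 10 (Zm00001d040002). These transporters did not pass the test between the BS sides. The log2 ratios of SWEET13a were −0.67 and −1.53 in BS and 4.61 and 1.80 in MS barcodes of libraries 1 and 2. They were −0.07 and −0.77 against 4.51 and 1.61 for SWEET13c, and −0.13 and −0.86 against 3.35 and 0.31 for UmamiT21a. Among genes of carbon metabolism and photorespiration it was −3.65 for FBPA-1, −4.64 for FBPA-2, −2.75 for SHBP1 and −4.49 for glycine cleavage protein H1. Among protease inhibitors and metal-binding proteins it was −2.86 for the wound-induced Bowman-Birk gene, −5.91 for bowman-birk inhibitor1, −3.19 for CCH and −2.53 for metallothionein 2C. It was −3.53 for small nuclear ribonucleoprotein G, −5.51 for a microtubule-associated protein (Zm00001d031619), −6.39 for a clavaminate synthase-like protein (Zm00001d039517) and −7.54 for Zm00001d016625, a gene of the abaxial list with 52 and 6 UMIs in low-gene BS and 3031 and 214 in kept BS barcodes. With DESeq2 the differences of small nuclear ribonucleoprotein G and of the wound-induced gene missed the threshold. In low-gene MS barcodes Zm00001d016625 had 15.8 and 0.910 CPM, against 0.690 and 0.210 CPM in kept MS barcodes.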

How the results depend on the processing

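The number of calls between the sides moved most with no library block, under the organelle limits, which also cut the low-gene side to 13 barcodes in each library, and with the tool. Of 1214 genes called, 640 were higher and 574 lower. The number was 325 with DESeq2 (189 higher, 136 lower), 683 with no factors (411, 272), 602 with 10 or more UMIs in every sum (299, 303), 41 with no replicate block (36, 5) and 24 under the organelle limits (16, 8). No low-count filter gave 261 higher genes and the 8-sum contrast 914 lower ones. Numbers of shared genes were 324 of the 325 with DESeq2 and all 41 with no block. Leaving out a library left no residual degrees of freedom, so no calls could be counted.

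The 76 differences between BS and MS (17 higher, 59 lower) were 0 (0 and 0) with 10 or more UMIs in every sum and with no replicate block, where edgeR gave 183 and 508 at an unadjusted p under 0.05 and DESeq2 called 64 in its own fit. They were 22 under the organelle limits (0 higher, 22 lower) and 33 with 20 or more marker UMIs (7, 26). Higher differences numbered 30 with RLE factors, 32 with no factors, 27 with organelle UMIs included and 11 with at most 10% of marker UMIs from the other class. For low-gene BS over low-gene MS, 1943 calls became 564 (283 higher, 281 lower) with 10 or more UMIs in every sum, 629 (388, 241) with no replicate block and 647 (181, 466) under the organelle limits, and lower calls 595 with DESeq2 and 791 with no factors.

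Signs of named genes turned in these cases. Without the low-count filter, which moved the median of all genes to −0.43, log2 fold changes were −0.0589 for AAP56, −0.219 for GLN4, −0.0699 for STP3, −0.309 for the microtubule-associated protein and −0.0962 for RCA2. The 8-sum contrast gave −0.0519, −0.207, −0.0391, −0.247 and −0.0887 for the same 5 genes. Under the organelle limits values were −0.19 for RBCL, 0.47 for FBPA-1, 0.43 for FBPA-2, 0.0153 for actin-7 and 0.14 for tubulin alpha-1. With the marker share limit they were −0.0401 for GLN4, 0.0888 for FBPA-1 and 0.142 for SWEET13c. SWEET13c also turned to 0.0433 with DESeq2, 0.0438 with RLE factors, 0.0116 with no factors, 0.0235 without barcodes near the gene limit and 0.18 with 20 or more marker UMIs. UmamiT21a was 0.0052 with DESeq2, 0.0468 with RLE factors, 0.0135 with no replicate block and 0.16 without barcodes near the gene limit. Of these, the called gene was RBCL. The cause was not tested. Low-gene sums were shallow, and a gene needed 8.58 and 3.14 UMIs there to pass the filter.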

Other observations

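Among features outside the maize gene IDs, 1765 carried the prefix ENSRNA, for which the files give no names. This group was picked after its values were seen. Together they held 1.52% and 0.840% of nuclear UMIs in low-gene BS barcodes and 0.0769% and 0.119% in kept ones, and 1.03% and 0.674% in low-gene MS against 0.0921% and 0.205% in kept MS barcodes. Of the 8 that passed the filter, 4 did so in all 4 BS sums.

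The remaining BS genes with a symbol gave these values. The 5 nicotianamine synthase genes NAS1, NAS2, NAS3, NAS9 and NAS10, which make a metal chelator, had 0 UMIs on both sides of both libraries. The abaxial transcription factor KAN1 had 11 and 4 UMIs in low-gene barcodes and 21 and 4 in kept ones (1.52 ± 0.70, adjusted p = 0.0839), which did not pass. bZIP4 had 27 and 7 UMIs in low-gene barcodes and 70 and 17 in kept ones (0.82 ± 0.48), and DOF3 had 7 and 0 in low-gene barcodes and 31 and 3 in kept ones, too few to be tested.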
